A study of Mus musculus with 9 samples.

Results

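The 10 genes described here encode transcription factors of the endothelium and were chosen by name: Sox18, Sox17 and Sox7 of the SOX family, Erg, Fli1, Ets1, Ets2 and Elk3 of the ETS family, and Tal1 and Gata2. They were taken from the 16593 genes named on the array, on which they carry 16 of the 25697 probes. The cells were SVR, an established mouse angiosarcoma line grown to confluence as a monolayer. It was made from endothelial cells that carry a viral large T antigen and an activated H-Ras, which every group shares. Its RNA was measured on 9 Illumina bead arrays, 3 for each of 3 groups: sham at 0 h, and 50 µM propranolol, a blocker of beta adrenergic receptors, at 4 h and at 24 h. The labels place the sham cells at 0 h, while the methods of the study give a single later time for sham and treated cells and another concentration. Time in culture and propranolol therefore cannot be told apart. RNA was pooled over 3 biological replicates per condition before the arrays were run, so a p-value here refers to differences among arrays that may be technical only, and each array carries bulk RNA, in which fewer cells of a type and less RNA per cell cannot be told apart.

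Factors of these families act in combination on the genes that make a cell endothelial. SOX18, SOX17 and SOX7 form the SOXF subgroup of HMG-box proteins, which is needed for arteries, veins and lymphatic vessels to form. ETS proteins bind a GGAA core that is found in the promoters and enhancers of nearly all endothelial genes, often beside sites for forkhead, SOX or GATA factors. TAL1, a basic helix-loop-helix protein, and GATA2 are shared by endothelial and blood-forming cells, where they sit in 1 complex that LMO2 and LDB1 hold together.

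The arrays had a mean signal of 307 to 388 intensity units on sham, 327 to 373 at 4 h and 307 to 342 at 24 h, and 11454 to 12245 probes on an array were detected with a detection p under 0.05. The position of an array on its BeadChip, the slide that carries it, and its group could not be told apart, and array 3 at 24 h was the only one on a second BeadChip. Of 15 endothelial markers named on the array, 11 were detected on all 9 arrays and 13 were tested. The 13 tested were called higher at 24 h than in sham, a comparison in which 13.6% of all genes tested were called higher and 11.1% lower. But Mmrn2 and Vwf were detected on no sham or 4 h array and so had entered the test only through the 24 h arrays, where they were high. They were not called without background correction. The other 11 were called in both fits by their brightest tested probes. A further Egfl7 probe was at a log2 fold change of 1.25 (limma adjusted p = 4.1e-07), and another, at 0.33, was not called (limma adjusted p = 0.23). Kdr and Clec14a were named on the array but did not pass the detection needed for the test. The summed signal of the 15 was 13488 to 18234 on sham, 13102 to 15606 at 4 h and 28280 to 32825 at 24 h. Of the leukocyte markers 2 of 11 were detected on any array, with Ptprc, Spi1 and Itgam at background, and of the erythroid and mast cell markers 3 of 8 were, with Gata1 at background. Also detected on any array were 3 of 6 lymphatic, 6 of 13 mural cell and fibroblast, and 5 of 5 epithelial markers. Of 3 lymphatic markers tested Flt4 and Pdpn were called higher, of 2 leukocyte markers Cd14 was called higher, of 4 mural cell and fibroblast markers Acta2 was called lower, of 3 epithelial markers Krt18 was called lower, and the 1 erythroid marker tested was not called. Without background correction Flt4, Cd14 and Acta2 were not called. A second Acta2 probe, at a log2 fold change of -0.42 (limma adjusted p = 0.0065), was short of a call with the correction too. The part of these lists in the results that follow was not tested.

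At 24 h of propranolol 4 of the 10 factors were called higher than in sham, as were 13.6% of all genes tested: Sox18 by 5.11-fold, Sox7 by 2.99-fold, Ets2 by 2.36-fold and Fli1 by 1.69-fold. Ets1, Tal1 and Gata2 were higher by 1.26-fold to 1.33-fold, less than the 1.5-fold a call needed, and Elk3 was at 1.05-fold. No factor was called lower or had a lower value at an unadjusted p under 0.05, and Sox17 and Erg could not be tested. At 4 h no factor was called in either direction by limma or by the linear model without its moderation. An unadjusted limma p under 0.05 was found at 4 h for 5 factors, and the share of all genes with such a p was not computed. A gene was tested where its probe was detected on all 3 arrays of at least 1 group, and it was called where limma gave an adjusted p under 0.05 and a change of at least 1.5-fold. The 8 factors tested were each detected on all 9 arrays, so none entered the test through the 24 h arrays alone. Of all 7969 genes tested, 11.1% were called lower at 24 h against sham, and the median log2 fold change of the 8 factors was 0.58, against -0.02 over all genes. On the normalized log2 scale the 24 h arrays lay wholly above the sham arrays for 7 of the 8, where 33.1% of all genes did so and 33.3% lay wholly below. These 7 also passed the adjusted p alone, as did 30.4% of all genes on the higher side and 30.4% on the lower. With 3 arrays against 3, an exact permutation test cannot give a two-sided p below 0.1, which each of these 7 reached.

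**Figure D1:**
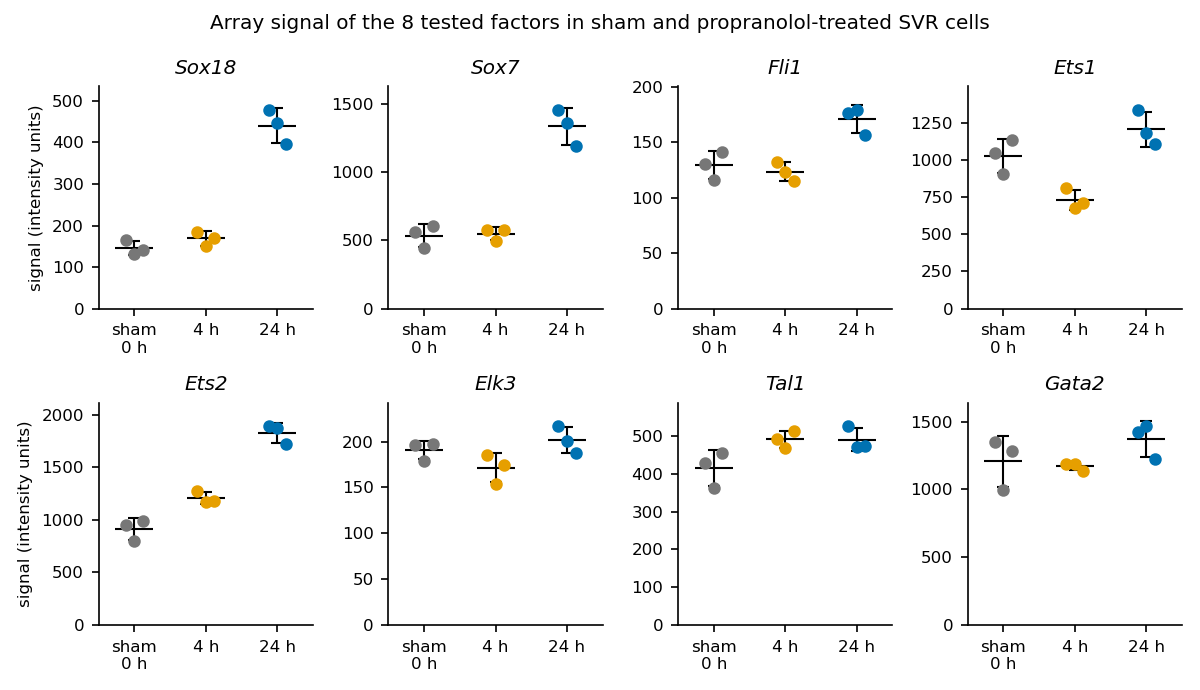
Signal of the 8 tested factors (intensity units without background correction, linear axes from 0) on each of the 3 arrays of sham, propranolol 4 h and propranolol 24 h, with bars for the mean and SD. Sox18 lies between 395 and 479 at 24 h, above all sham and 4 h arrays, and Ets2 is higher at each time than at the one before.

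Sox18, whose loss of function in the mouse disturbs blood and lymphatic vessels, had the largest log2 fold change of the 8 factors tested. Its probe (ILMN_2645321) read 165, 131 and 141 intensity units on the 3 sham arrays, 186, 150 and 171 at 4 h, and 479, 447 and 395 at 24 h. The 24 h arrays stood clear of all others, while the signals at 4 h and in sham overlapped before normalization. After background correction and quantile normalization Sox18 averaged 8.53 ± 0.05 at 24 h and 6.18 ± 0.24 in sham (log2, SD, n = 3 each), a log2 fold change of 2.35 with a standard error of 0.11 (limma adjusted p = 8e-08). Of all genes tested 99.4% had a lower log2 fold change. Without background correction the change was 1.61, or 3.05-fold, and Sox18 was still called. At 4 h Sox18 was higher than in sham by 0.46 (limma adjusted p = 0.016), under the fold a call needs, with log2 values of 6.71, 6.49 and 6.72 at 4 h and 6.35, 6.28 and 5.90 in sham. Those groups did not overlap after normalization, but the adjusted p was 0.055 without 4 h replicate 1, and also without 4 h replicate 3, and 0.059 in the linear model without moderation.

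Sox7, which acts beside Sox18 in the growth of embryonic vessels, was read by a pair of probes that gave nearly the same change. The brighter probe (ILMN_2889482) had signals of 560, 440 and 601 in sham, 576, 492 and 572 at 4 h, and 1455, 1357 and 1190 at 24 h. The other (ILMN_2653251) had 230, 219 and 243 in sham, 237, 223 and 235 at 4 h, and 583, 538 and 486 at 24 h. On each probe the arrays of sham and 4 h were mixed with one another and the 24 h arrays were set apart. The log2 fold change at 24 h against sham was 1.58 ± 0.07 (SE) on the brighter probe and 1.58 ± 0.09 on the other, with limma adjusted p of 4.7e-08 and 2.6e-07. At 4 h the brighter probe differed from sham by 0.11 (limma adjusted p = 0.3) and the other by 0.05 (limma adjusted p = 0.75).

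Sox17, the SOXF member tied in the mouse to arterial identity, was read by 2 probes and passed the detection threshold on none of the 9 arrays. Its signals lay between 77.5 and 90.8 in sham, between 82.2 and 88.0 at 4 h, and between 81.2 and 90.5 at 24 h, with detection p values from 0.22 to 0.89. At this signal a difference between the groups was not detectable, and no fold change was computed.

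**Figure D2:**
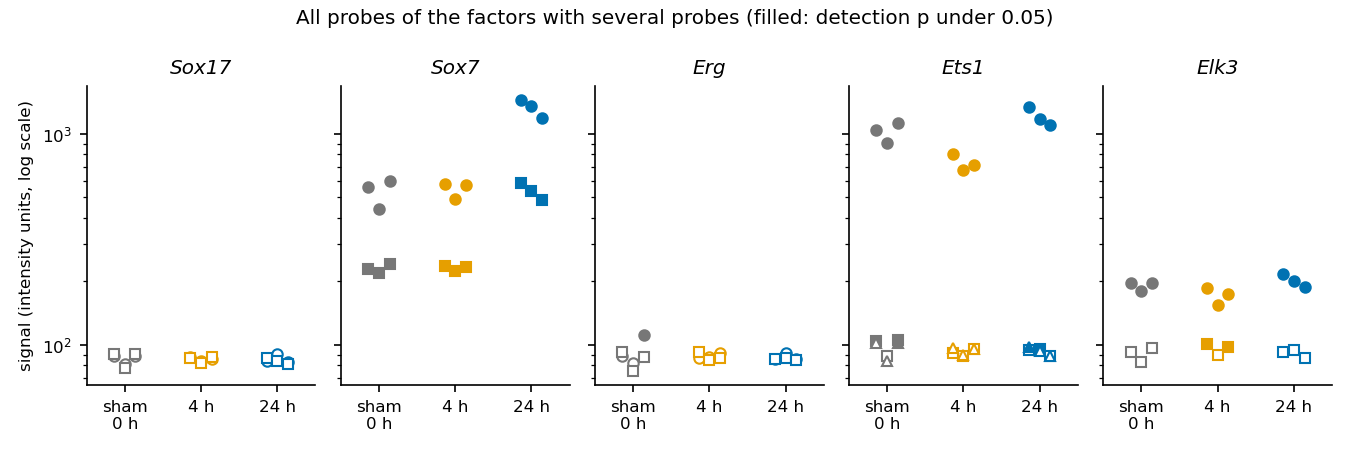
Signal (intensity units, log axis) of every probe of the 5 factors with more than 1 probe on each array of sham, propranolol 4 h and propranolol 24 h, where circles, squares and triangles are probes 1, 2 and 3 of a gene and filled symbols mark a detection p under 0.05. Both Sox7 probes are higher at 24 h, the Sox17 and Erg probes stay at background except for 1 Erg probe on sham array 3, and only 1 of 3 Ets1 probes is bright.

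Of the ETS factors, Erg, which keeps up the junction genes of mature endothelium, also stayed close to background. One of its 2 probes (ILMN_1260248) had signals of 88.9, 82.5 and 111 in sham, 86.3, 87.7 and 91.7 at 4 h, and 85.5, 91.5 and 85.7 at 24 h. Only sham array 3 passed detection, with a p of 0.010. The other probe (ILMN_1253014) was detected on no array, at 74.9 to 92.7 over all groups. Erg therefore entered no comparison, and a low signal of these probes does not show that the transcript is absent.

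Fli1, the closest relative of Erg and a regulator of blood vessel and megakaryocyte genes, was detected on all 9 arrays at a low signal. It had 131, 116 and 141 in sham, 132, 123 and 115 at 4 h, and 177, 179 and 156 at 24 h. The lowest 24 h array was above the highest array of both other groups. Its log2 fold change at 24 h against sham was 0.76 ± 0.11 (SE; limma adjusted p = 0.00017). Without background correction it was 0.38, which still passed the adjusted p (5.8e-06 by limma) but not 1.5-fold, so that 3 of the 8 factors were called in place of 4. At 4 h the difference from sham was -0.11 (limma adjusted p = 0.51).

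Ets2, an ETS factor that MAP kinases downstream of Ras phosphorylate, had a higher signal at 4 h than in sham and a higher one still at 24 h. Its probe (ILMN_2594714) had signals of 954, 797 and 993 in sham, 1274, 1171 and 1179 at 4 h, and 1889, 1873 and 1718 at 24 h. No array of one group reached into the range of the next. The log2 fold change was 1.24 ± 0.06 (SE) at 24 h against sham (limma adjusted p = 7.5e-08) and 0.51 ± 0.06 at 4 h against sham (limma adjusted p = 0.00027), the second being 1.43-fold and short of a call. Ets2 is the only called factor with an entry in the RefSeq promoter table, and its promoter is shown for that reason. It covers the 250 bases before the start at chr16:95702157-95702406 on the plus strand (GRCm38.p6), 5′ to 3′, with the only match to the motifs searched in capitals:
Ets2 promoter: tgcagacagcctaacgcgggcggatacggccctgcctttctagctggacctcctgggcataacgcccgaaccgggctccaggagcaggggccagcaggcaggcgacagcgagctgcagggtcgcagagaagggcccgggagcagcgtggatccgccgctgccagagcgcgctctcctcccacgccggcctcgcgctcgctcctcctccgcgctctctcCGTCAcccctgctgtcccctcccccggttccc
The motifs searched on both strands were CCGGAA for ETS factors, ACAAT for SOX factors, GATAA for the GATA family, CATCTG for the E-box bound by TAL1, TGACTCA for AP-1 and TGACG for the CRE half-site, the last pair sharing the letters TGAC. The GGAA core alone was not searched for, so a core outside CCGGAA is left in lower case. The match in Ets2 is a CRE half-site on the minus strand, and 17.8% of 32851 RefSeq promoters hold such a half-site on either strand.

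Ets1, which drives protease and integrin genes in growing vessels, was below sham at 4 h and above it at 24 h, by less than a call needs at both times. The probe that was tested (ILMN_3157483) had signals of 1043, 903 and 1131 in sham, 808, 675 and 710 at 4 h, and 1335, 1178 and 1105 at 24 h. After normalization its log2 values were 9.75, 9.87 and 9.84 in sham, 9.40, 9.36 and 9.38 at 4 h, and 10.30, 10.17 and 10.22 at 24 h, so the groups did not overlap. The log2 fold change was -0.44 ± 0.06 (SE) at 4 h against sham (limma adjusted p = 0.00095) and 0.41 ± 0.06 at 24 h against sham (limma adjusted p = 0.00027). Neither change reached 1.5-fold. After background correction with median centring in place of quantiles the 24 h change was 0.28 (limma adjusted p = 0.07), and with 75th percentile scaling it was 0.20 (limma adjusted p = 0.004). Its other 2 probes, which the array assigns to a second transcript, were detected on 3 and 2 of 9 arrays and had signals between 83.8 and 106 in all groups, so only 1 probe bears on this pattern.

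Elk3, a ternary complex factor that represses serum response genes with SRF, was the factor closest to sham at 24 h. Its tested probe had log2 values of 6.81, 7.07 and 6.81 in sham, 6.72, 6.56 and 6.77 at 4 h, and 7.03, 6.89 and 6.97 at 24 h. The 24 h arrays fell within the spread of the sham arrays, and the difference was 0.07 ± 0.09 (SE; limma adjusted p = 0.54). The 4 h arrays lay below sham, at -0.21 ± 0.09 (limma adjusted p = 0.12).

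Tal1 and Gata2, the factors shared with blood-forming cells, were both above sham by less than a call needs. Tal1 had log2 values of 8.34, 8.44 and 8.40 in sham, 8.60, 8.76 and 8.85 at 4 h, and 8.76, 8.61 and 8.82 at 24 h. It was above sham on every treated array, and the times of treatment were mixed with one another. The log2 fold change was 0.34 ± 0.08 (SE) at 4 h (limma adjusted p = 0.015; 0.051 without sham replicate 1, 0.055 without 4 h replicate 3 and 0.088 with median centring in place of quantiles) and 0.34 ± 0.08 at 24 h (limma adjusted p = 0.0051). Gata2 had log2 values of 10.14, 10.02 and 10.03 in sham, 10.00, 10.24 and 10.11 at 4 h, and 10.40, 10.48 and 10.38 at 24 h. On this scale only the 24 h arrays stood apart, by 0.36 ± 0.08 against sham (limma adjusted p = 0.002), while the 4 h difference was 0.05 (limma adjusted p = 0.66). Before normalization the Gata2 signals were 996 to 1352 in sham and 1224 to 1466 at 24 h, which overlapped. After background correction with median centring in place of quantiles Gata2 at 24 h was at 0.23 and limma gave an adjusted p of 0.15. For Tal1 the RefSeq table lists 2 starts, and the upstream one, at chr4:115056176-115056425 on the plus strand (GRCm38.p6), is shown because it is the only promoter of a tested factor in the table with a match to an ETS, SOX, GATA or E-box motif, a GATA match on the minus strand, in capitals:
Tal1 promoter, first start: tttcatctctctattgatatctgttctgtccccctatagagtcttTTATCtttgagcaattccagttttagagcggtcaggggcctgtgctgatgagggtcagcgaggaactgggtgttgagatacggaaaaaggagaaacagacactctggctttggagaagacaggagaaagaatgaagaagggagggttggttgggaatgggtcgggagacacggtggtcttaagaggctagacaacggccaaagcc
A GATA match was found in 22.6% of all RefSeq promoters. Copies of the GGAA core outside the longer ETS motif were not searched for and are left in lower case here too. The second Tal1 start holds 1 CRE half-site and no other match, both Gata2 starts and the Elk3 start hold none of the 6 motifs, and 1 of 3 Erg starts holds a SOX and a GATA match. Sox18, Sox17, Sox7, Fli1 and Ets1 were not matched in the table.

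**Figure D3:**
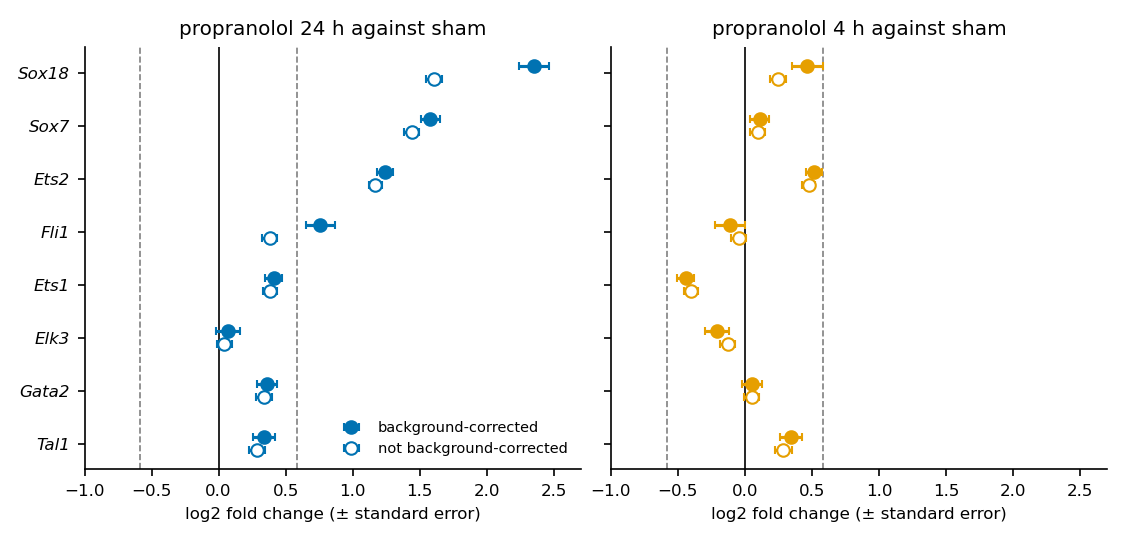
Log2 fold change with its standard error for the 8 tested factors at 24 h against sham (left) and 4 h against sham (right), with background-corrected values filled and uncorrected values open, and dashed lines at 1.5-fold. Sox18, Sox7, Ets2 and Fli1 pass the line at 24 h, Fli1 only after background correction, and none passes it at 4 h.

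Read at 4 h against sham, 2.05% of all genes were called higher and 2.01% lower, and none of the 8 factors was. The adjusted p alone was passed by 4 of them, Sox18, Ets2 and Tal1 on the higher side and Ets1 on the lower, where 13.1% of all genes passed it on the higher side and 11.5% on the lower. The median log2 fold change was 0.08, against 0.01 over all genes. The 4 h arrays lay wholly above sham for Sox18, Ets2 and Tal1 and wholly below for Ets1 and Elk3, which 22.9% and 19.3% of all genes did.

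Set directly against each other, 24 h was called higher than 4 h for 5 factors, where 10.6% of all genes were called higher and 7.4% lower. These were Sox18 at a log2 fold change of 1.89 (limma adjusted p = 5.7e-07), Sox7 at 1.47 (1.3e-07), Fli1 at 0.87 (8.8e-05), Ets1 at 0.85 (2.2e-06) and Ets2 at 0.73 (4.4e-06). The adjusted p alone was passed by 7 factors, all higher at 24 h, against 26.2% of all genes on the higher side and 28.7% on the lower, and the 24 h arrays lay wholly above the 4 h arrays for 7, against 29.5% of all genes. Gata2 at 0.31 and Elk3 at 0.28 passed it without reaching 1.5-fold (0.0061 and 0.023 by limma), Elk3 no longer without 4 h replicate 2, 24 h replicate 1 or 24 h replicate 3, and Gata2 no longer with median centring in place of quantiles (0.24, limma adjusted p = 0.14). Fli1 was at 0.43 and short of a call without background correction, which left 4 called factors. Tal1 differed by less than its error, at 0.00 ± 0.08 (SE; limma adjusted p = 0.98). This comparison shares its arrays with the other comparisons and is no separate evidence for them. With the BeadChip as a block, which leaves the values of the first BeadChip, the counts of called factors were again 4 for 24 h and 0 for 4 h, each set against sham, and 5 for the later time set against the earlier one, and Sox18 stood at 2.37 at 24 h against sham.

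The other SOX and ETS genes tested had 3 called higher and 1 called lower at 24 h against sham, where 13.6% and 11.1% of all genes were. Of 14 other SOX genes on the array 2 were tested and 1, Sox13, was called higher at 24 h. It had 106 to 109 intensity units at 24 h and 87.2 to 101 in sham, where it was not well above background on any array, nor was it on any 4 h array, so it entered the test only through the 24 h arrays. On the background-corrected scale the change was at least 1.44-fold, with the lowest signal of detected probes in place of sham. Without background correction it was 1.16-fold and not called. Of 19 other ETS genes 9 were tested, and their median log2 fold change was -0.01. Etv3, a repressor, rose by 0.64 (limma adjusted p = 0.00031) and Elf1, an ETS factor of blood and endothelial cells, by 0.62 (limma adjusted p = 3e-05), while Etv4, a target and effector of growth factor signalling, fell by 0.70 on the log2 scale (limma adjusted p = 2.4e-05). None of these 3 was called without background correction. At 4 h the only gene of either list called by its brightest tested probe was Etv1, at 0.88 (limma adjusted p = 0.00045). It is named after its values were seen, and was at 0.31 and not called without background correction. Its second probe was at 1.14 (limma adjusted p = 3.1e-05). Elf2, also named after its values were seen, was not called by its brightest probe. Another Elf2 probe met the call at 4 h (0.65, limma adjusted p = 0.0022) and at 24 h (0.74, limma adjusted p = 0.00018). The remaining Elf2 probes did not.

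Of 12 tested partners of Tal1 and the GATA factors, 4 were called higher at 24 h, where 13.6% of all genes were. Only 1 was called lower, where 11.1% of all genes were. Their median was 0.14. Cbfa2t3, which encodes the corepressor ETO2 of the TAL1 complex, had signals of 212 to 236 at 24 h and 85.9 to 97.4 in sham, where it was not well above background on any array. It entered the test only through the 24 h arrays. On the background-corrected scale it was at least 5.71-fold higher (limma adjusted p = 2e-08), and without background correction 2.42-fold higher and still called. Of the other 11 partners, 3 were called higher. Lmo2, the bridging protein of the complex, had 715 to 863 at 24 h and 218 to 294 in sham, a log2 fold change of 1.93 (limma adjusted p = 9.8e-09). Tcf4, an E protein that pairs with TAL1, rose by 1.13 (limma adjusted p = 6e-07). Zfpm1, the GATA cofactor FOG1, was the other gene called higher, at 0.81, and is named after its values were seen. Gata6, a GATA factor of vascular and endodermal cells, had signals of 154 to 170 at 24 h and 211 to 258 in sham and fell by 0.93 (limma adjusted p = 1.4e-06), or by 0.58 and short of a call without background correction. At 4 h none of the 12 was called by limma, and 5 had an unadjusted p under 0.05, for which the share of all genes was not computed. The adjusted p alone was passed at 4 h by 13.1% of all genes on the higher side and 11.5% on the lower.

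Of 14 other endothelial transcription factors tested, 7 were called higher at 24 h and none lower, against 13.6% and 11.1% of all genes. Their median log2 fold change was 0.55. Epas1, which encodes the hypoxia-inducible factor HIF2α, was at 1.36 (limma adjusted p = 2.1e-06) but was detected on 1 of 3 sham arrays and on no 4 h array, so it entered the test only through the 24 h arrays, and without background correction it was at 0.48 and not called. Of the other 13 factors, 6 were called higher. Bcl6b was at 1.14 (limma adjusted p = 1.1e-06), Mef2c, a MADS-box factor of vessels and muscle, at 1.11 (2.3e-07), and Id1, an inhibitor of basic helix-loop-helix proteins, at 0.92 (1.1e-06). The other 2 tested probes of Mef2c were at 0.61 and 1.22. At 4 h Meox1 was the only gene of the list called, at -0.77 (limma adjusted p = 0.0074), named after its values were seen, and at -0.31 it was not called without background correction. Without background correction 4 of the 14 were called at 24 h.

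Genes known to hold ETS, SOX or GATA sites in their endothelial promoters or enhancers were mostly higher at 24 h. Of 19 tested, 16 were called higher and none lower, against 13.6% and 11.1% of all genes. Their median log2 fold change was 1.08. On the normalized log2 scale the 24 h arrays lay above sham for all 19, as they did for 33.1% of all genes. Before normalization the signals of Vcam1 and Nos3 at 24 h and in sham overlapped. Vwf entered the test only through the 24 h arrays, and of the other 18 genes 15 were called, with a median of 1.10. Without background correction 12 of the 19 were called, Vwf, Flt4, Notch1 and Rasip1 no longer. Tek, the gene of the angiopoietin receptor TIE2, was at 2.69 (limma adjusted p = 7.3e-08), or 6.47-fold, and at 3.35-fold without background correction. Flt1, the gene of VEGF receptor 1, was at 1.55 (2.5e-07), and the junction and adhesion genes Esam and Icam2 at 1.51 (1.1e-07) and 1.46 (1.2e-07). At 4 h none of the 19 was called higher and 3 were called lower, against 2.05% and 2.01% of all genes. These were Edn1 at -1.75, Vcam1 at -0.82 and Rasip1 at -0.73, which are named after their values were seen. Without background correction Edn1 was at -1.16 and Rasip1, at -0.39, was not called. Many of these genes are also among the endothelial markers given above, so the lists are not separate evidence. The list was written from background knowledge, and no binding of a factor was measured in these cells.

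Of the early genes that SRF controls with ternary complex factors such as Elk3, 8 were tested. At 24 h 3 were called higher, where 13.6% of all genes were, and only 1 was called lower, where 11.1% were. The 3 called higher were Ier3 at 1.91 (limma adjusted p = 3.1e-08), Fos at 1.69 (2.6e-07) and Fosb at 0.95 (0.00011). Srf itself was called lower at -0.67 (limma adjusted p = 7e-05), also at 4 h (-0.61, 0.00086 by limma). A second Srf probe was at -0.62 at 24 h (limma adjusted p = 0.0041). At 4 h that probe was at -0.32 and not called (limma adjusted p = 0.15). Without background correction neither Fosb nor Srf was called. The median at 24 h was 0.02.

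**Figure D4:**
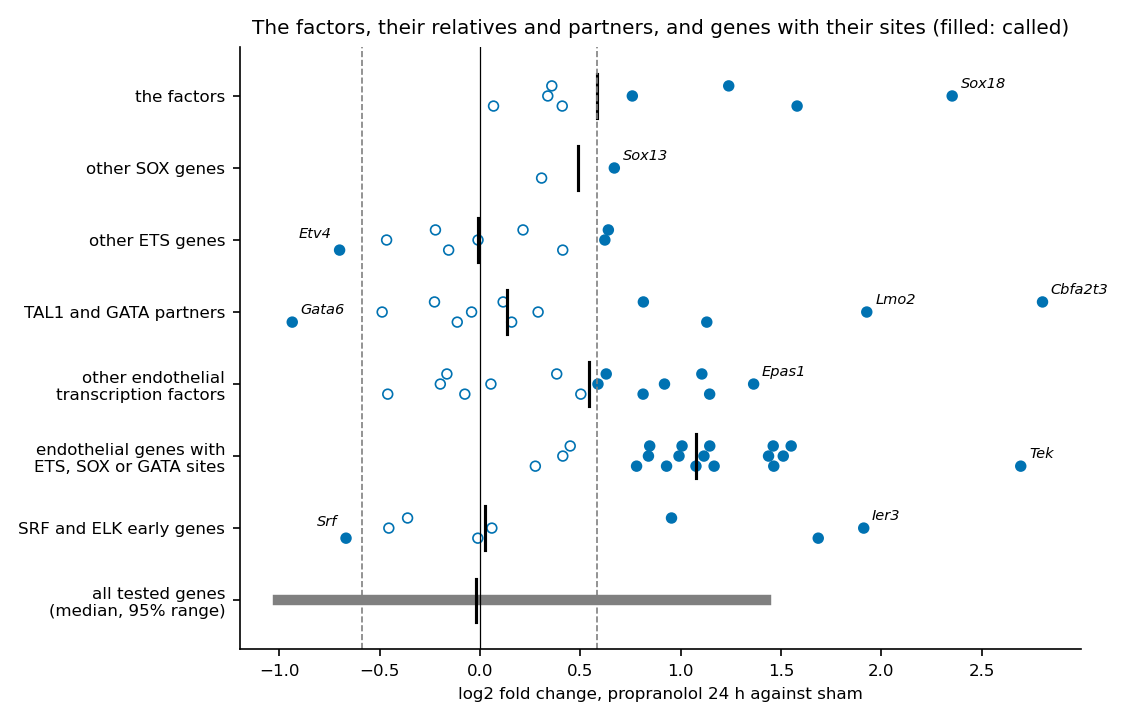
Log2 fold change at 24 h against sham of each tested gene (points, filled where called) for the 8 factors, their relatives and partners and the genes with their sites, with the median of each group as a black bar and dashed lines at 1.5-fold. The grey bar gives the central 95% of all tested genes, and the list of genes with ETS, SOX or GATA sites has a median of 1.08 against -0.02 for all genes.

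Over the 9 arrays the genes whose pattern was most like that of Sox18 were Cxcl10, a chemokine, at Pearson r = 0.994, Slc7a11, the cystine transporter, at 0.994, Atp6v0b, a subunit of the vacuolar proton pump, at 0.994, Ndel1, a dynein-binding protein, at 0.993, and Slc39a4, a zinc transporter, at 0.993. Since the arrays fall into 3 groups, 539 genes had an r above 0.95 with Sox18, and these values describe the pattern without a test. Among the factors, Sox18 and Sox7 were nearest to each other (r = 0.980), Ets2 was nearest to Sox18 (0.959), Fli1 and Gata2 to Sox7 (0.921 and 0.908), Ets1 to Fli1 (0.866), Elk3 to Ets1 (0.809) and Tal1 to Ets2 (0.727).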

How the data were processed

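Illumina bead arrays of sham and propranolol-treated SVR cells were grouped by their labels. Before deposit, RNA was pooled over 3 biological replicates per condition, amplified, biotin-labelled, hybridized and imaged on an Illumina iSCAN; the sources used here do not name the scanner software. For each probe and array the deposited files give a raw intensity, a detection p-value from the negative control probes, and how many beads were read (24 to 58 for the probes described) with their standard error. A second table that the authors deposited holds the intensity multiplied by 1 constant per array, and the value table holds the same values.

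Background correction by detection p-value and quantile normalization were run with neqc (limma 3.58.1, R 4.3.3) at an offset of 16. Testing was limited to probes that each of the 3 arrays in 1 or more groups detected at p under 0.05 (11653 probes, 7969 named genes), and a gene was represented by its brightest tested probe. All 9 arrays entered 1 linear model with 3 groups, p-values were adjusted by Benjamini-Hochberg over all tested probes, and a call needed an adjusted p under 0.05 and at least 1.5-fold. The fit was tested on simulated data. Where a gene was detected on no array of a group, its fold was bounded by the lowest signal of detected probes. Gene names came from the platform annotation, which names 23978 probes. Promoter sequences came from RefSeq (GRCm38.p6), matched for 5 of 10 factors.

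The factors and gene lists were chosen with earlier results of these data known. Named were all 10 factors and, per list, up to 4 called genes of largest change at 24 h. Alternatives covered background correction, normalization, offset, detection filter, probe choice, test, blocks and leaving out each array. Same-numbered arrays did not deviate together (correlations of -0.022 to 0.0057), so the numbers were not used as pairs. The precision is limited by the number of arrays.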

Additional observations from a re-analysis of the deposited data

Results flagged for a closer look

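The change at 24 h differed from the change at 4 h for 5 factors by a call in the limma contrast of 24 h with 4 h. A call needed an adjusted p under 0.05 and at least 1.5-fold, and 10.6% of all genes were called higher and 7.4% lower. The adjusted p alone was passed by 7 factors, against 26.2% of all genes on the higher side and 28.7% on the lower. On the log2 scale the called differences were 1.89 for Sox18, 1.47 and 1.53 for the 2 probes of Sox7, 0.87 for Fli1, 0.85 for Ets1 and 0.73 for Ets2.

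The second Elk3 probe, which entered no test, passed detection on 2 treated arrays, both at 4 h, and on no sham array. Its signals were 102, 90.0 and 97.7 at 4 h and 92.4, 83.4 and 96.3 in sham, which overlap. Groups of 3 arrays were not searched for single arrays far from the others.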

How the results depend on the processing

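Leaving out any 1 array gave 4 called factors at 24 h against sham, 0 at 4 h against sham and 5 at 24 h against 4 h, as with all arrays. Over the 6 lists of relatives, partners and target genes, leaving out 1 array gave 34 to 36 calls, against 36 with all arrays. With the replicate number as a block the counts were again 4, 0 and 5, and 36 for the lists. Without background correction the factors called at 24 h against sham numbered 3, and the lists' calls 22 in place of 36: 12 in place of 16 for the genes with ETS, SOX or GATA sites, 4 in place of 7 for the other endothelial transcription factors, 2 in place of 4 for the SRF list, and 0 in place of 3 and of 1 for the other ETS and SOX genes. The deposited table gave 2 calls for the SRF list and 1 for the other ETS genes, which also had 1 with 75th percentile scaling and 1 with an offset of 50. In those 3 settings, and with detection asked of all arrays, no other SOX gene was called, and with 75th percentile scaling 3 of the other endothelial transcription factors were. At 24 h against 4 h, 3 factors were called with 75th percentile scaling in place of 5, and 4 without background correction, in the deposited table and with an offset of 50, Fli1 being short of 1.5-fold in all 4 settings. At 24 h against sham Fli1 was short of it in the same settings (0.37 with 75th percentile scaling, 0.38 without background correction, and 0.52 in each of the other two), and with 75th percentile scaling Ets2 was short of it at 24 h against 4 h (0.54).

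Values that changed sign were all uncalled. At 4 h against sham Fli1 ran from -0.20 to 0.0028 over the fits without 1 array, Gata2 from -0.0076 to 0.11 and the second Sox7 probe from -0.024 to 0.14, and Gata2 was at -0.011 with median centring and with 75th percentile scaling. At 24 h against 4 h Tal1 ran from -0.072 to 0.056, and it was at 0.072 in the deposited table.

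The split of genes called higher and lower at 24 h against sham moved with the scaling: 1085 and 882 in the fit described, 614 and 451 without background correction, 743 and 387 in the deposited table, and 509 and 701 with 75th percentile scaling. The cause was not tested. Low signal over background limits Sox17 and Erg, for which no difference was detectable.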
